A study of Danio rerio with 3 samples.

Results

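The DNA replication genes described here are *mcm2*, *mcm3*, *mcm4*, *mcm5*, *mcm6*, *mcm7*, *pcna* and *rrm1*, taken from the RPKM table by their symbol. Each is on 1 row, so they make 8 of the 28084 named genes of the table. The study sequenced whole zebrafish larvae of the AB strain at 6 dpf (days post-fertilization), in 1 library for each of 3 groups. WT larvae were wild type and received no injection. 5MO larvae had been injected as early embryos with a morpholino, an antisense oligonucleotide, against the autophagy gene *atg5*. 5mRNA larvae had been injected with *atg5* mRNA and are labelled as overexpressing it. No library analysed here came from larvae injected with a control morpholino, so injection and *atg5* knockdown cannot be told apart in 5MO against WT. None came from larvae injected with a control mRNA either, so injection and the *atg5* mRNA cannot be told apart in 5mRNA against WT. The larvae of a group were pooled into its single library. No difference given here therefore has a replicate check or a p-value, and each compares libraries, not conditions.

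Before a cell divides, the MCM2-7 complex, a ring of 6 related subunits encoded by *mcm2* to *mcm7*, is loaded onto DNA at replication origins. Once activated, it is the helicase that unwinds the double helix. *pcna* encodes the sliding clamp that holds DNA polymerases on their template, and *rrm1* the large subunit of ribonucleotide reductase, which makes deoxyribonucleotides. Transcription of these genes is driven by E2F factors as cells enter S phase, so in a whole animal their mRNA comes largely from dividing cells. In zebrafish larvae such cells lie in the margin of the retina, the germinal zones of the brain, the gut and the blood-forming tissue, among other places.

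STAR took between 27492652 and 31140490 read pairs per library, and 87.63% to 87.88% of them mapped to a single place. RPKM gives reads relative both to gene length and to library size. The values step in whole reads, which gave read totals of 19502144 in WT, 20301332 in 5MO and 21857365 in 5mRNA. For each gene they gave its reads or a whole fraction of them. The targeted gene *atg5* had an RPKM of 9.08 in WT, 7.69 in 5MO and 8.97 in 5mRNA, so the library labelled 5mRNA, called 5mRNA here for short, did not hold more *atg5* mRNA than WT. Of 27 marker genes of 9 cell types written down as a check, 24 are in the table, and all but the globin gene *hbaa1* (0 reads in WT and 1 read in each injected library) had reads in every library. The WT library stood apart from both injected libraries in *rsad2*, an interferon-response gene with 1540 reads there against 4 in 5MO and 2 in 5mRNA.

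In 5MO, 7 of the 8 DNA replication genes were higher than in WT, by 1.34-fold for *pcna* to 1.94-fold for *mcm6*. In 5mRNA, all 8 were lower than in WT, with ratios from 0.649 for *rrm1* to 0.863 for *mcm7*. The exception in 5MO was *mcm7*, which stood at 0.848 of WT there. Between the injected libraries the same 7 genes were 1.59-fold to 2.78-fold higher in 5MO than in 5mRNA. In every case a ratio is that of read shares, a share being the reads of the gene over the read total of the library.

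**Figure D1:**
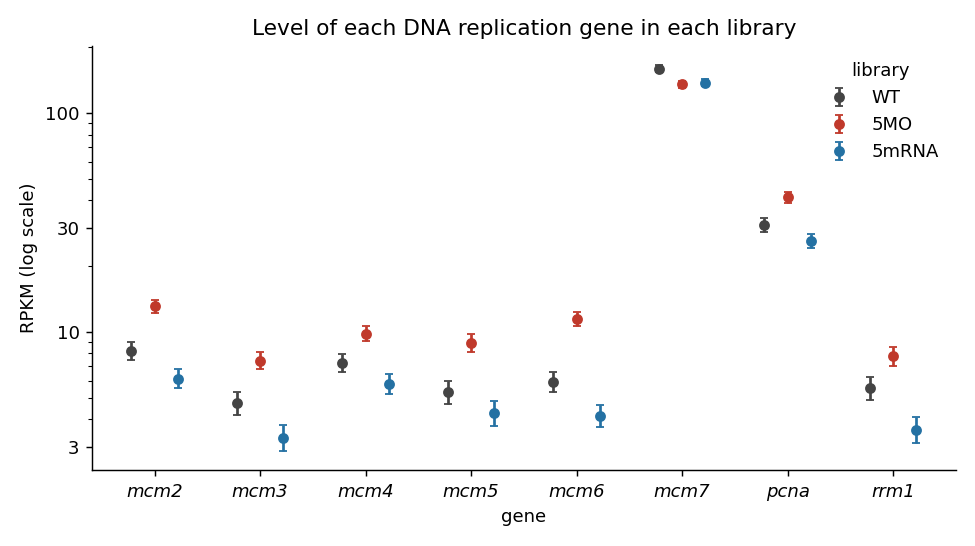
RPKM (log scale) of each DNA replication gene in the WT, 5MO and 5mRNA libraries, 1 point per library, with bars for the 95% Poisson interval of the reads. For every gene except *mcm7* the 5MO point is the highest and the 5mRNA point the lowest, and *mcm7* lies far above the rest at 135.6 to 160.0 RPKM.

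The helicase subunits are described first. *mcm2* (ENSDARG00000102798, chromosome 22 from 5603970 to 5624920 in danRer10, as are all coordinates here) had an RPKM of 8.21 in WT, 13.1 in 5MO and 6.14 in 5mRNA. These stood for 470, 784 and 394 reads. The 5MO library was 1.60-fold higher than WT, with a counting interval from 1.43 to 1.8, and 5mRNA stood at 0.748 of WT, with an interval from 0.653 to 0.857. The counting interval is the 95% Clopper-Pearson interval of the ratio. It covers the error of counting reads alone, which may be too small where PCR copied a molecule, and leaves out the variation between pools.

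*mcm3* (ENSDARG00000024204, chromosome 20 from 34867318 to 34880864) was the lowest of the 8 genes in every library, at an RPKM of 4.74 in WT, 7.42 in 5MO and 3.29 in 5mRNA, from 283, 461 and 220 reads. Its ratio to WT was 1.56 in 5MO (interval 1.35 to 1.82) and 0.694 in 5mRNA (interval 0.579 to 0.830). *mcm4* (ENSDARG00000040041, chromosome 24 from 35648541 to 35673592) differed least from WT in 5MO among the subunits that were higher there. Its RPKM was 7.27 in WT, 9.85 in 5MO and 5.80 in 5mRNA, from 429, 605 and 384 reads. The ratio to WT was 1.35 in 5MO (interval 1.2 to 1.54) and 0.799 in 5mRNA (interval 0.694 to 0.919).

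*mcm5* (ENSDARG00000019507, chromosome 3 from 25868606 to 25880569), whose product forms with that of *mcm2* the gate through which the ring opens onto DNA, had an RPKM of 5.33 in WT, 8.92 in 5MO and 4.27 in 5mRNA, from 272, 474 and 244 reads. Its ratio to WT was 1.67 in 5MO (interval 1.44 to 1.95). In 5mRNA the ratio was 0.80, and its interval, from 0.671 to 0.955, came nearest to 1 of all members in that library. *mcm6* (ENSDARG00000057683, chromosome 6 from 12733207 to 12755502) showed the widest spread of the 8 genes. Its RPKM was 5.93 in WT, 11.5 in 5MO and 4.15 in 5mRNA, from 351, 709 and 275 reads. The ratio to WT was 1.94 in 5MO (interval 1.71 to 2.21) and 0.699 in 5mRNA (interval 0.595 to 0.821), and the 5MO library was 2.78-fold above 5mRNA (interval 2.41 to 3.20).

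The sixth subunit gene behaved otherwise. *mcm7* (ENSDARG00000101180, chromosome 14 from 150838 to 158517) had an RPKM of 160.0 in WT, 135.6 in 5MO and 138.0 in 5mRNA, from 2973, 2624 and 2875 reads or a whole multiple of these. WT was the highest library and the injected libraries were level with each other. The ratio to WT was 0.848 in 5MO (interval 0.804 to 0.894) and 0.863 in 5mRNA (interval 0.819 to 0.909), and 5MO stood at 0.983 of 5mRNA, with an interval from 0.932 to 1.04 that holds 1.

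*mcm7* also differed from its partners in level, although its protein has a place in the same ring. Its RPKM was 27.0 times the median of the other 5 subunits in WT, 13.8 times in 5MO and 32.4 times in 5mRNA. In reads, at the smallest whole numbers given above, it held 6.33 times as many as the next subunit gene in WT. This ratio was 3.35 in 5MO and 7.30 in 5mRNA. If the reads of *mcm7* are a whole multiple of those given, these ratios rise by the same multiple. The other 5 subunits lay close together, and the highest of them, *mcm2*, was 1.73 times the lowest, *mcm3*, in WT, 1.77 times in 5MO and 1.87 times in 5mRNA. The gene length behind the RPKM of *mcm7* is 953 bases or a whole multiple of that, against 2617 to 3062 bases for the other subunits. The part of this length in the level of *mcm7* was not tested.

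Annotation overlaps touch 3 of the members, and the sources used here do not say whether reads were counted by strand. The whole 7680 bases of *mcm7*, on the plus strand, lie inside the span of *tmem107*, a gene of the primary cilium on the minus strand with an RPKM of 12.0 in WT, 8.61 in 5MO and 12.4 in 5mRNA. *mcm3* shares 10098 bases with *stmn4* on the opposite strand, a neuronal stathmin gene at 68.5 in WT, 56.5 in 5MO and 62.7 in 5mRNA. *mcm6* shares 3508 bases with si:ch73-71c20.5 on its own strand, at 7.13, 6.80 and 8.01. Without strand, reads of *mcm7* and *mcm3* cannot be told apart from those of their antisense partners where exons overlap. All 3 neighbours were lower in 5MO than in WT. In 5mRNA *stmn4* was lower than in WT, as *mcm3* was, and *tmem107* and si:ch73-71c20.5 were higher. *mcm2*, *mcm4*, *mcm5*, *pcna* and *rrm1* overlap no other gene of the table, and all 5 were higher in 5MO and lower in 5mRNA than in WT. The part of overlapping reads in the values of *mcm3*, *mcm6* and *mcm7* was not tested.

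The clamp gene *pcna* (ENSDARG00000054155, chromosome 10 from 40900618 to 40905471) was the most abundant member after *mcm7*. Its RPKM was 30.9 in WT, 41.4 in 5MO and 26.1 in 5mRNA, from 809, 1128 and 766 reads, and 5MO again was highest and 5mRNA lowest. The ratio to WT was 1.34 in 5MO (interval 1.22 to 1.47) and 0.845 in 5mRNA (interval 0.764 to 0.934). The clamp acts as a ring of 3 copies of this protein, and it also serves DNA repair. Its level was 5.21 times the median of the 5 close subunits in WT, 4.2 times in 5MO and 6.12 times in 5mRNA.

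*rrm1* (ENSDARG00000014017, chromosome 21 from 30735348 to 30750719), the member for nucleotide supply, had an RPKM of 5.53 in WT, 7.74 in 5MO and 3.59 in 5mRNA, from 282, 411 and 205 reads. It had the lowest ratio to WT of the 8 genes in 5mRNA, 0.649 with an interval from 0.539 to 0.779. In 5MO the ratio was 1.4, with an interval from 1.2 to 1.64. The 5MO library was 2.16-fold above 5mRNA (interval 1.82 to 2.57).

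**Figure D2:**
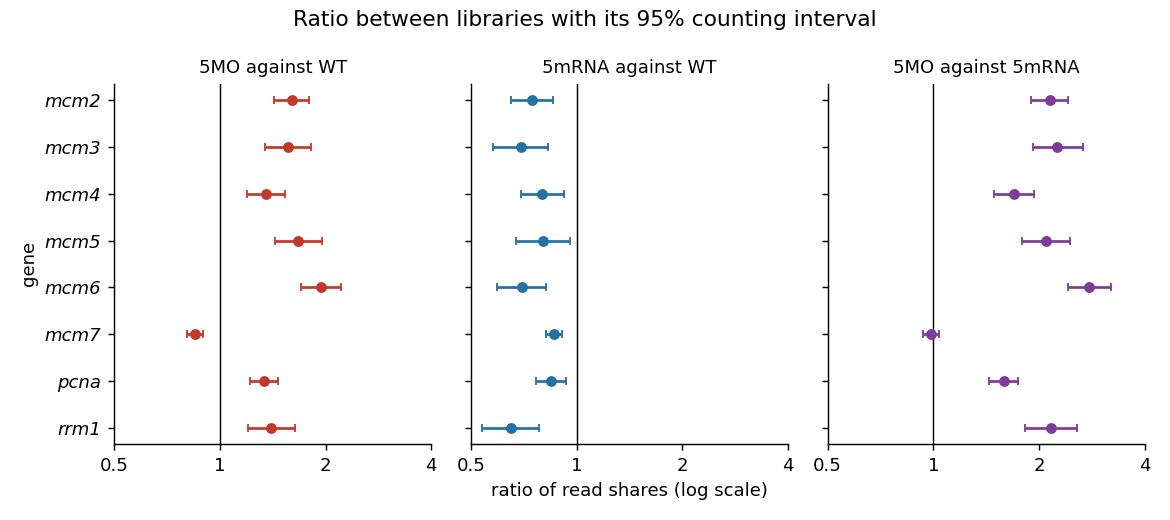
Ratio of read shares (log scale) of each member for 5MO against WT, 5mRNA against WT and 5MO against 5mRNA, with bars for the 95% counting interval and a line at 1. In the first and last comparison 7 intervals lie above 1 and *mcm7* is apart at 0.848 and 0.983, while in the middle one all 8 intervals lie below 1.

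By level, *mcm7*, *pcna* and *mcm2* held the first 3 places in every library and *mcm3* the last. The Poisson intervals of *mcm7*, *pcna* and *mcm2* did not overlap. From *mcm2* downwards, 1 gap in each library was wider than the intervals, between *mcm4* and *mcm6* in WT, *mcm6* and *mcm4* in 5MO, and *mcm4* and *mcm5* in 5mRNA. The other neighbours overlapped, so their order is not separated at this depth. *mcm6* moved from place 5 in WT to place 4 in 5MO and place 6 in 5mRNA. Summed without *mcm7*, the other 7 genes had 2896 reads in all in WT, 4572 in 5MO and 2488 in 5mRNA, against the 2973, 2624 and 2875 of *mcm7* alone.

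The members also differed among themselves in the size of the change. For 5MO against WT, the counting intervals of 10 of the 28 pairs of members did not overlap. Of these, 7 pairs involve *mcm7*, and the other 3 set *mcm6* apart from *mcm4*, *pcna* and *rrm1*. For 5mRNA against WT only the pair of *mcm7* and *rrm1* was apart, so 5mRNA did not separate the other members. For 5MO against 5mRNA, 13 pairs were apart, of which 6 do not involve *mcm7*. In 5 of those 6 *pcna* had the smaller ratio, and the remaining pair was *mcm4* below *mcm6*. Pairs of other genes were not counted in this way, so these counts do not show whether the members differ more than other genes do.

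The members were then read against the 19172 genes whose RPKM averaged 1 or more over the libraries, a filter that all 8 passed. The members, and the lists that follow, were chosen with earlier results of these data known. Their shares beside those of all genes are therefore descriptive and not an independent check. Here the change is the log2 ratio of RPKM + 0.1, a scale that makes the change of low genes smaller. In 5MO against WT, 7 of 8 members were at least 1.2-fold higher, as were 19.1% of all genes, and 0 were at least 1.2-fold lower, against 18.9%. At 1.5-fold, 4 of 8 were higher (*mcm2*, *mcm3*, *mcm5* and *mcm6*), against 5.23% of all genes. The counting interval lay above 1 for 7 members and for 20.9% of genes, and below 1 for *mcm7* and for 20.7% of genes. The median log2 ratio of the members was 0.56, and that of all genes 0.01.

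In 5mRNA against WT, 6 of 8 members were at least 1.2-fold lower, against 16.9% of all genes, and 0 at least 1.2-fold higher, against 17.5%. *mcm7* and *pcna* fell short of that fold, with log2 ratios of -0.21 and -0.24. At 1.5-fold only *rrm1* was lower, against 5.37% of genes, so most of these differences were small. The counting interval lay below 1 for all 8 members, against 18.8% of genes, and above 1 for 0, against 19.1%. The median log2 ratio was -0.37, and that of all genes 0.01.

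In 5MO against 5mRNA, 7 of 8 members were at least 1.2-fold higher (19.9% of all genes) and 0 at least 1.2-fold lower (20.6%). The same 7 members were at least 1.5-fold higher, against 5.6% of genes, and 5 were at least 2-fold higher, against 1.28%. Those 5 were *mcm2*, *mcm3*, *mcm5*, *mcm6* and *rrm1*. The interval lay above 1 for 7 members (22.3% of genes) and below 1 for 0 (22.4%). The median log2 ratio was 1.07. The 3 comparisons share libraries, so they are not separate evidence of one another. Among the 9528 genes with a mean RPKM from 5.15 to 32.8, the range of the members other than *mcm7*, 15.6% were at least 1.2-fold higher in 5MO against WT, 13.1% at least 1.2-fold lower in 5mRNA against WT and 16.7% at least 1.2-fold higher in 5MO against 5mRNA. That range was chosen after the values had been seen.

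**Figure D3:**
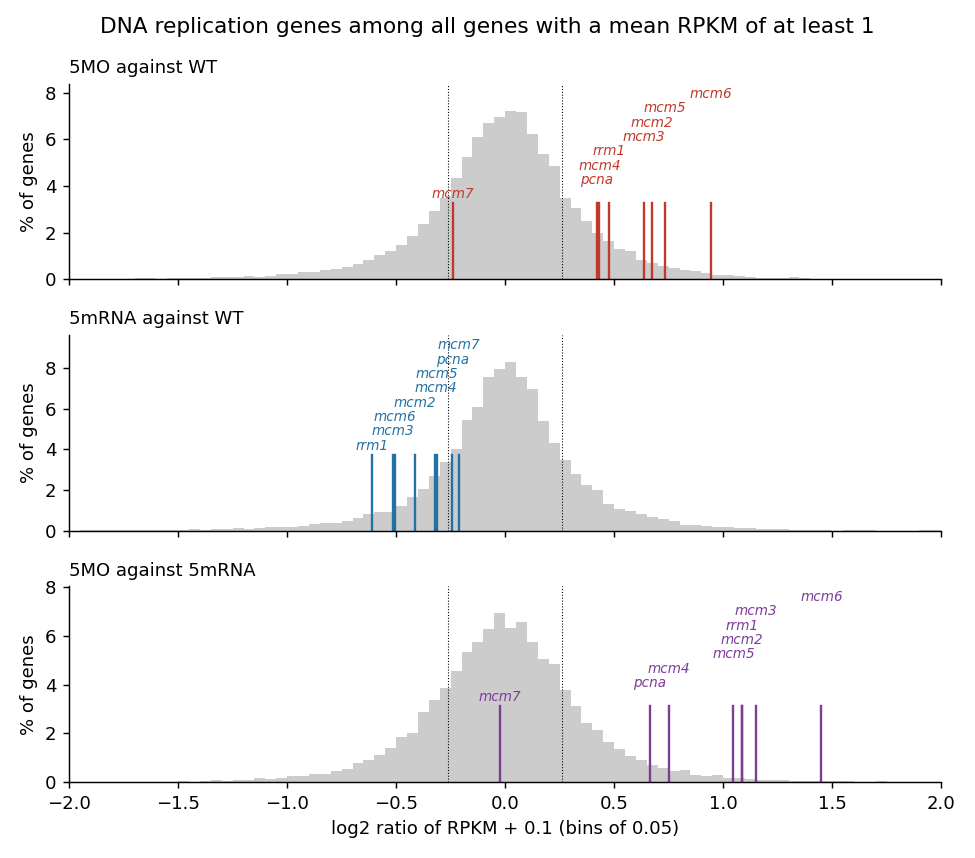
Share of the 19172 genes whose RPKM averaged 1 or more (grey bars, % of genes) by log2 ratio of RPKM + 0.1 in bins of 0.05, with each member as a coloured line and dotted lines at 1.2-fold; genes beyond the ends of the axis are not drawn. Except for *mcm7*, the members lie on the right of the distribution in 5MO against WT and in 5MO against 5mRNA. In 5mRNA against WT all 8 members, *mcm7* among them, lie on its left side.

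A wider list of replication genes was compared in the same way. Of 75 symbols written down, 72 are in the table, on 74 rows because *rrm2* and *dut* have 2 rows each, and 59 rows passed the filter. In 5MO against WT, 34 of the 59 were at least 1.2-fold higher and 4 at least 1.2-fold lower, with a median log2 ratio of 0.29. These were 57.6% and 6.78% of the list, against 19.1% and 18.9% of all genes. In 5mRNA against WT, 7 (11.9%) were higher and 16 (27.1%) lower by that fold, against 17.5% and 16.9% of all genes. The median was -0.06. That median was -0.13 with a filter at 0.1 RPKM and -0.10 with none. In 5MO against 5mRNA, 32 (54.2%) were higher and 2 (3.39%) lower, against 19.9% and 20.6% of all genes. The median was 0.32, and it was 0.47 with a filter at 0.1 RPKM or with none. The medians of the wider list were nearer to 0 than those of the 8 members in all 3 comparisons, a difference that was not tested.

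Among genes that license origins, *orc1*, a subunit of the origin recognition complex, had an RPKM of 1.51 in WT, 2.31 in 5MO and 0.701 in 5mRNA, so its libraries stood in the same order as for the members. Among the genes that passed the filter it had the highest ratio of the list in 5MO against 5mRNA, 3.29 with an interval from 2.25 to 4.90. *orc2*, of the same complex, went the other way in 5MO, at 3.12 in WT, 1.81 in 5MO and 3.42 in 5mRNA, from 48, 29 and 59 reads. Of the 10 licensing genes that passed the filter, 5 were at least 1.2-fold higher in 5MO and 1 lower than in WT. By that fold, 19.1% of all genes were higher and 18.9% lower. The counting interval of 5MO against WT lay above 1 for 2 of the 10 and below 1 for 1. Over all genes these shares were 20.9% and 20.7%. *mcmbp*, whose product binds MCM subunits, was at 7.37 in WT, 8.07 in 5MO and 5.77 in 5mRNA. Its interval against WT held 1 in 5MO and lay below 1 in 5mRNA (ratio 0.783, interval 0.643 to 0.954).

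Of the 6 genes for helicase activation that passed the filter, 3 were at least 1.2-fold higher in 5MO than in WT. That is a share of 50.0%, against 19.1% of all genes. *gins4*, a subunit of the GINS complex that joins MCM2-7 in the active helicase, had an RPKM of 0.976 in WT, 2.07 in 5MO and 0.961 in 5mRNA, a ratio of 2.12 in 5MO with an interval from 1.35 to 3.41. *gins1*, of the same complex, did not share this. It was at 3.86 in WT, 3.67 in 5MO and 3.10 in 5mRNA, a ratio of 0.950 in 5MO (interval 0.699 to 1.29). *gins2* and *gins3* did not pass the filter. The paralogs of the MCM family were scarce. *mcm3l* was counted 6 times in WT, 13 times in 5MO and 12 times in 5mRNA, *mcm6l* had 1, 2 and 9, and *mcm8* had 8, 16 and 5. *mcm9* had 33, 48 and 13 reads and *mcm10*, a replication factor that is not part of the ring, 23, 20 and 5. For *mcm9* and *mcm10* the interval of 5mRNA against WT lay below 1, for *mcm6l* it lay above 1 on 1 read in WT, and for none of these 5 genes did the interval of 5MO against WT leave out 1.

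Among the polymerase genes, *pold1*, the catalytic subunit of polymerase delta, had an RPKM of 2.76 in WT, 3.90 in 5MO and 1.66 in 5mRNA. *pole2*, a subunit of polymerase epsilon, was highest in WT at 4.53, with 2.67 in 5MO and 3.0 in 5mRNA. Of the 10 polymerase and primase genes, 5 were at least 1.2-fold higher in 5MO than in WT and 1 lower. Of 12 genes of clamp loading and the lagging strand, 7 (58.3%) were higher by that fold and 0 lower in 5MO. Among all genes 19.1% were higher and 18.9% lower by that fold in 5MO. In 5mRNA against WT, 2 of the 12 were at least 1.2-fold higher and 2 lower, or 16.7% each way, which is near the shares over all genes (17.5% and 16.9%).

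Copying of chromatin had the highest median of the roles in 5MO against WT, 0.50 on the log2 scale, with 6 of 7 genes at least 1.2-fold higher. That is a share of 85.7%, against 19.1% of all genes. *chaf1b*, a subunit of the histone chaperone that works at the clamp, had an RPKM of 0.946 in WT, 1.55 in 5MO and 0.557 in 5mRNA. *uhrf1*, which guides maintenance methylation of new DNA, was at 3.45, 5.75 and 3.63, a ratio of 1.67 in 5MO (interval 1.46 to 1.91) and 1.05 in 5mRNA (interval 0.908 to 1.22). This gene was named after its values had been seen.

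The small subunit of ribonucleotide reductase is the partner of the *rrm1* product, and its gene symbol *rrm2* stands on 2 rows. The row ENSDARG00000020711 had an RPKM of 4.52 in WT, 4.97 in 5MO and 2.75 in 5mRNA. Its ratio to WT was 1.1 in 5MO (interval 0.864 to 1.4) and 0.608 in 5mRNA (interval 0.460 to 0.801). The row ENSDARG00000078069 had 1.42, 3.19 and 2.77, and was 2.24-fold and 1.94-fold above WT. The rows went in opposite directions in 5mRNA. How the counting treated reads that match both rows is not given in the sources used here, and its part in these values was not tested. *rrm2b*, a further small subunit that serves non-dividing cells in mammals, was at 15.5 in WT, 14.7 in 5MO and 13.8 in 5mRNA, with intervals that hold 1 in both comparisons with WT. Of the 9 rows of nucleotide supply that passed the filter, 5 (55.6%) were at least 1.2-fold higher and 1 (11.1%) lower in 5MO than in WT. Among all genes these shares were 19.1% and 18.9%. In 5mRNA 3 (33.3%) were higher and 2 (22.2%) lower, against 17.5% and 16.9%. Of the remaining genes of this role, *dck*, which phosphorylates deoxycytidine, had 18, 35 and 33 reads in WT, 5MO and 5mRNA. *tk1* stood in the members' order, at an RPKM of 1.59, 2.59 and 1.28, with an interval that held 1 in 5mRNA against WT. *dtymk*, which makes thymidine diphosphate, ran opposite to the members, at an RPKM of 3.36 in WT, 2.32 in 5MO and 4.62 in 5mRNA.

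**Figure D4:**
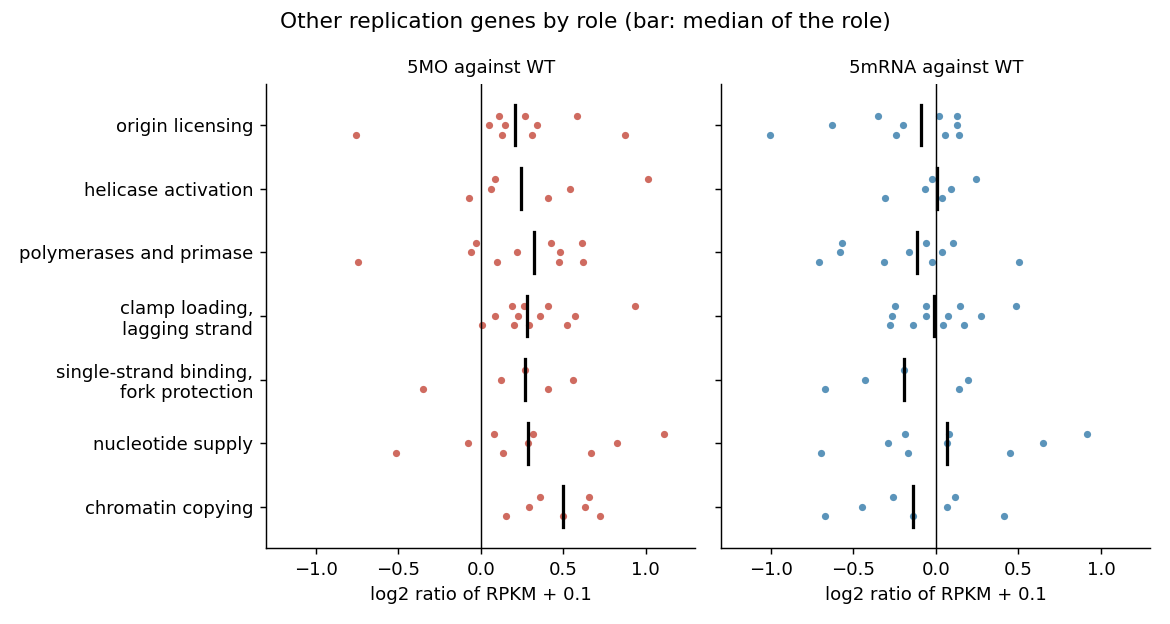
Log2 ratio of RPKM + 0.1 for the other replication genes whose RPKM averaged 1 or more, by role, in 5MO against WT and 5mRNA against WT, 1 point per gene, with black bars at the median of the role. All 7 medians are above 0 in 5MO, highest for chromatin copying at 0.50, while in 5mRNA the medians lie from -0.19 to 0.07.

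Regulators of entry into S phase were compared next. Of 17 genes of the E2F and G1/S list that passed the filter, 6 were at least 1.2-fold higher and 2 lower in 5MO than in WT, and 0 higher and 5 lower in 5mRNA. Among all genes the shares at that fold were 19.1% higher and 18.9% lower in 5MO, and 17.5% higher and 16.9% lower in 5mRNA. The medians of the list were 0.13 and -0.10. *e2f3*, an activating E2F factor, had an RPKM of 2.13 in WT, 3.12 in 5MO and 1.67 in 5mRNA. *e2f1* had only 37, 36 and 20 reads, and its interval held 1 in 5MO and lay below 1 in 5mRNA (ratio 0.482, interval 0.265 to 0.853). *e2f8*, a repressing member of the family, was highest in WT, at 2.40, against 1.39 in 5MO and 0.881 in 5mRNA.

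*rb1*, which restrains E2F factors, was the highest of the list in 5MO, at 1.68 in WT, 2.79 in 5MO and 1.55 in 5mRNA. *ccna2*, the cyclin of S and G2 phase, was at 1.41, 2.20 and 1.71, and *cdk2*, its kinase partner, at 1.90, 2.78 and 2.14, from 23, 35 and 29 reads. *cdkn1a* encodes an inhibitor of cyclin-dependent kinases that also binds the clamp. It had an RPKM of 12.0 in WT, 5.87 in 5MO and 5.45 in 5mRNA, so that it was lower in both injected libraries, with ratios of 0.489 (interval 0.386 to 0.618) and 0.454 (interval 0.358 to 0.574). *cdkn1ba* and *tfdp2*, the lowest of the list in 5MO against 5mRNA, had log2 ratios of -0.25 and -0.14 there.

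Genes of mitosis, the later step of the cell cycle, were taken as a further list. Of 20 that passed the filter, 9 were at least 1.2-fold higher and 3 lower in 5MO than in WT, with a median log2 ratio of 0.20, and 3 higher and 7 lower in 5mRNA, with a median of -0.13. In 5MO the higher genes were 45.0% of the list, against 19.1% of all genes, and the lower ones 15.0%, near the 18.9% of all genes. In 5mRNA the higher genes were 15.0% of the list, near the 17.5% of all genes, and the lower ones 35.0%, against 16.9%. *mki67*, the gene of the Ki-67 proliferation marker, had an RPKM of 2.16 in WT, 3.72 in 5MO and 1.96 in 5mRNA, from 345, 619 and 350 reads. Its ratio was 1.72 in 5MO (interval 1.51 to 1.97) and 0.905 in 5mRNA (interval 0.778 to 1.05). *plk1*, a mitotic kinase, was at 2.79, 6.28 and 3.15, a ratio of 2.25 in 5MO (interval 1.62 to 3.16), and *ube2c*, which marks mitotic proteins for destruction, at 1.22, 2.82 and 1.58.

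Other mitotic genes did not share this. *aurka* and *bub1ba*, a mitotic kinase and a spindle checkpoint protein, were the lowest of the list in 5MO, with log2 ratios of -0.39 and -0.40 and intervals that hold 1. In 5mRNA, *ttk*, also of the spindle checkpoint, had a log2 ratio of -0.59, and *cdc20*, with 8 reads in WT and 5 in 5mRNA, one of -0.78. *kif23*, a kinesin of cell separation, had the highest, 0.41, with an interval of its ratio from 0.955 to 1.93.

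Since the libraries are of whole larvae, more or fewer dividing cells cannot be told apart from more or less of these mRNAs in each cell. This holds for the higher values in 5MO and for the lower ones in 5mRNA. Among the cell type markers, those of intestine followed part of the members' pattern. Of 3 listed, *fabp2* and *vil1* are in the table, and their summed RPKM was 603 in WT, 831 in 5MO and 602 in 5mRNA. *vil1*, at 126, 160 and 113, stood in the members' order, while *fabp2*, at 477, 671 and 489, was not below WT in 5mRNA. Lens markers, all 3 of them found, summed to 1832 in WT, 1928 in 5MO and 1431 in 5mRNA. Each was lowest in 5mRNA, the library in which the members were lowest. *crybb1* gave most of the sum, at 1746, 1849 and 1371. *cryaa*, at 44.9, 42.2 and 31.2, and *mipa*, at 40.7, 37.5 and 28.9, were lower in 5MO than in WT. Liver markers summed to 1587, 2442 and 2544, higher in both injected libraries. Leukocyte markers summed to 27.8, 41.7 and 42.7, of which *lyz* gave most, at 24.0, 36.4 and 38.4. The macrophage marker *mpeg1.1* ran the other way, at 2.38, 1.94 and 1.54. Fast muscle markers, at 10426, 10369 and 10457, were nearly level. Neuron markers summed to 545, 584 and 558, and photoreceptor markers to 1898, 1942 and 1754. Those of exocrine pancreas (2 of 3 found) summed to 778, 990.1 and 908, and went opposite ways. *ela2* was at 514, 742 and 674, and *cpa5* at 265, 248 and 234. Those of erythrocytes (2 of 3 found) summed to 161, 141 and 204, nearly all from *alas2*, since *hbaa1* had at most 1 read in a library. The part of these tissues in the values of the replication genes was not tested.

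Outside the lists, the 5 genes nearest to the members in pattern were *fgfbp1b*, *abracl*, *dlg5b.1*, *dbnla* and *SRL*. Likeness was the distance between the log2 ratios of a gene in 5MO and 5mRNA against WT and the members' medians. It was taken over the 12161 genes outside the lists whose RPKM averaged 5 or more, and it rests on 3 libraries. The nearest, *fgfbp1b*, an FGF binding protein, had log2 ratios of 0.56 and -0.35. Of the 12161 genes, 15 lay within 0.1 of the members' medians, or 0.123%, and 72 within 0.2, or 0.592%. The members themselves all lay further than 0.1 from their medians, and *mcm6*, *mcm7* and *rrm1* further than 0.2. These shares therefore do not measure how rare the pattern of the members is.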

How the data were processed

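RNA-seq libraries of whole larvae, 1 each of WT, 5MO and 5mRNA, were read from the authors' table. Its deposited unit is RPKM, reads per gene scaled by the authors to gene length and library total. The submitters' processing notes name STAR 2.5.2a and danRer10. The counting tool, its strand setting and the annotation release are not given in the sources used here. The 33 rows that name no gene, holding 35.7% to 36.1% of the RPKM sum, were left out. Gene symbols of all 8 members matched the reference gene names by Ensembl identifier, ignoring case.

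Read totals were found from the steps between the RPKM values of low genes. Reads of a gene are the smallest whole numbers (within 0.002 reads) at a whole gene length in all 3 libraries, found for 25905 genes, while 2179 genes are at 0 throughout. Both steps were tested on simulated data. Changes are log2 ratios of RPKM + 0.1, and ratios of read shares with 95% Clopper-Pearson intervals. Lists and backgrounds hold genes whose RPKM averaged 1 or more. With 1 library per group no test was made and depth is the one source of precision.

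The text names all members, their partners *mcm3l*, *mcm6l*, *mcm8*, *mcm9*, *mcm10*, *mcmbp*, *rrm2* and *rrm2b*, and the 2 highest and 2 lowest genes of each list and comparison with an average RPKM of 1 or more, and the 5 genes nearest in pattern. A further list of genes, also compared, is not reported here. Other named genes were chosen after their values were seen. The members and lists were chosen with earlier results of these data known. Alternatives were pseudocounts of 1 and 0.01, scaling by the median of ratios or to the same sum, filters of 0.1 or none, and folds of 1.5 and 2. Python 3.11.15, numpy 2.4.6, scipy 1.17.1, pandas 2.3.3 and matplotlib 3.10.9 were used.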

Additional observations from a re-analysis of the deposited data

How the results depend on the processing

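Of 183 alternative values, 179 kept their direction and stayed within 1.5 times the count or within the counting interval, and 0 were reversed. For a median, this interval was taken from its middle gene or genes. For the wider list in 5mRNA against WT it ran from -0.38 to 0.25 on the log2 scale. An interval this wide is a weak check on a median. The log2 ratios of the single members stayed within their intervals in 96 of 96, under the other pseudocounts and scalings. The medians kept their direction in 39 of 39, under these, the other filters and, for the members, without *mcm7*. The median of the wider list in 5mRNA against WT moved by over 1.5 times, from -0.06 to -0.13 with a filter at 0.1 RPKM and -0.10 with none. In 5MO against 5mRNA that list's median moved from 0.32 to 0.47 with either filter, and to 0.23 with a pseudocount of 1. The scaling factors lay within about 1% of 1, so they could move little. Without *mcm7*, left out after its values had been seen, the median log2 ratio was 0.64 in 5MO against WT, -0.41 in 5mRNA against WT and 1.09 in 5MO against 5mRNA. The counts moved with the fold asked for, by construction. At 1.5-fold, 4 members were higher in 5MO against WT and 1 lower in 5mRNA against WT, and at 2-fold 0 in each. Depth limits the genes with few reads, above all the MCM paralogs, and the reads of *mcm7* may be a whole multiple of those given, which would narrow its intervals. No paired analysis was possible because each group has 1 library.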
